A study of Homo sapiens with 4 samples.

Results

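The 40 genes described here encode hepatocyte products and the transcription factors that keep liver cells in their state. They were taken as a named set from 19970 protein-coding genes on chromosomes 1 to 22 and X: 11 plasma proteins, 9 apolipoproteins, 6 coagulation proteins, 6 enzymes and fatty acid binding proteins, and 8 transcription factors. The set was proposed with its scarcity of gene-end peaks known. The study mapped USF1 on chromatin by ChIP-seq, in which DNA bound to a protein is pulled down with an antibody and sequenced. The cells were Huh7, an established human hepatocellular carcinoma line, in which USF1 was overexpressed and precipitated with an antibody to the FLAG tag. All libraries, input included, come from such cells, and no library from untagged cells was analysed here. The labels do not say whether the libraries came from separate cultures or from 1 clone, and the promoter that drove USF1 is not given in the sources used here. There were 2 immunoprecipitated libraries and 2 libraries of input chromatin. The authors deposited 2 peak lists, list 1 with 14300 peaks (IP 1 against input 1) and list 2 with 27325 (IP 2 against input 2), from libraries of 43562726 to 47165647 kept tags. A peak is called shared where 1 bp or more of it is covered by a peak in the other list, and its position and distance are then those of list 1. ChIP-seq gives no expression, so the use of these genes in Huh7 cells was not measured here.

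Hepatocytes secrete most of the proteins of blood plasma, and a network of factors that includes HNF4A and the FOXA proteins holds their genes active, often through enhancers away from the promoter. USF1 is a basic helix-loop-helix leucine zipper factor that binds the E-box CACGTG as a dimer, often at promoters. In liver it is known for lipid and glucose genes, among them apolipoprotein genes.

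Peaks of USF1 were scarce at the ends of these genes, as was known when the set was proposed. Peaks away from all gene ends were also less frequent near them than near other genes. A gene-end peak, with its centre within 1 kb of either end of the gene, was present at 0 of the 40 genes in list 1, against 15% of the other 19930 protein-coding genes. List 2 held one at 3 of the 40, against 30.2% of other genes, and shared peaks at 0, against 11.6%. With the window widened to the gene and 50 kb on each side, 12 of the 40 had a peak in list 1 and 53.7% of other genes had one. In list 2 the count was 28, against 77.9%, and for shared peaks 6, against 37.5%. These shares are descriptions without a test, since 2 peak lists allow none and the 40 genes are not replicates. In each list the share was lower in the 40 genes than in the others. For any list 2 peak within 50 kb the gap was small. Among genes without a gene-end peak that share was 67.6% in members and 68.3% in others, near its background. The lists themselves were far apart, with 12 and 28 of the 40 genes near a peak. At a p of at most 1e-10 in both lists FABP1 alone kept a shared peak within 50 kb, and with 8-fold or more in each list FABP1 and F7 kept one.

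The promoter sequences frame the result. They show a member's promoter under a peak, members' promoters without a peak, and neighbours' promoters that lie under peaks near members. Each is the 250 bases before the RefSeq start site (GRCh38.p14), written 5′ to 3′ in the direction of the gene, with CACGTG in capitals. The last 2 were chosen after their peaks were seen.
APOA5, chr11:116792421-116792670, minus strand: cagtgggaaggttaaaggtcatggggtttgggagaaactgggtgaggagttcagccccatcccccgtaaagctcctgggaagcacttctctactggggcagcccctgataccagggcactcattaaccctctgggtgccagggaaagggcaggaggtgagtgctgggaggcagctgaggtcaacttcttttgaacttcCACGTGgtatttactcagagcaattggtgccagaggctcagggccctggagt
ONECUT1, chr15:52790337-52790586, minus strand: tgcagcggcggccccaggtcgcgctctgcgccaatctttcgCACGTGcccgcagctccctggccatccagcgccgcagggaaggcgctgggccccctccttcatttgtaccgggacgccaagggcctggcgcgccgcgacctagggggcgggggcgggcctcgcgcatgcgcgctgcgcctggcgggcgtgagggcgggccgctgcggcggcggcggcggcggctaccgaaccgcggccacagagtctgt
F2, chr11:46718963-46719212, plus strand: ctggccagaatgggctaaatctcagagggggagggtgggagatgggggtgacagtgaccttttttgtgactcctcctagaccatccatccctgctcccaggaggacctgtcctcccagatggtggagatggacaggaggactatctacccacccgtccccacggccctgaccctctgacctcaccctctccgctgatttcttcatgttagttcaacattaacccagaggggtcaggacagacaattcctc
F10-AS2, chr13:113153987-113154236, minus strand: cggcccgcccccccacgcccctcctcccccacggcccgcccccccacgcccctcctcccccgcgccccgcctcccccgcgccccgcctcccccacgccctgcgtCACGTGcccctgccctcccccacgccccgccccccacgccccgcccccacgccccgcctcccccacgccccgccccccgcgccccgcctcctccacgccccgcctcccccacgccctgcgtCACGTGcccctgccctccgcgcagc
DHODH, chr16:72008494-72008743, plus strand: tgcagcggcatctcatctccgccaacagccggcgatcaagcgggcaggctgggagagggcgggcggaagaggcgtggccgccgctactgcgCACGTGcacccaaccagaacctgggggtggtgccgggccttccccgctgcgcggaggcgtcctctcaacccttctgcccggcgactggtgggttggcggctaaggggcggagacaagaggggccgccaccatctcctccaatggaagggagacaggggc
The APOA5 stretch holds CACGTG starting 52 bases before the start site, inside a list 2 peak whose summit lies 198.5 bp away. ONECUT1 holds it 209 bases before the start, with no peak of either list over it, and F2 has no CACGTG in this stretch. The promoter of F10-AS2, downstream of F7, holds it at 146 and 25 bases before the start. The copy at 25 bases lies 3.5 bp from the summit of the list 1 peak and 36.5 bp from that of list 2. DHODH, a neighbour of HP, has it 159 bases before the start, 62.5 bp from the summit of a list 2 peak.

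RefSeq promoter windows of 300 bases (250 before and 50 after the start site) were matched for 31 of the 40 genes, not for TTR, APOA1, APOB, APOC3, HP, TAT, CYP7A1, FOXA2 and PROX1. CACGTG, which reads the same on both strands, was present in 2 of the 31 (6.45%), APOA5 and ONECUT1, and in 8.87% of all 15811 promoters. Promoters that a shared peak overlapped held it in 30.2% of 1895 cases, and those without a shared peak in 5.97%. The looser CANNTG, of which CACGTG is one case, was in 27 of the 31 (87.1%) and in 64.5% of all. Shared peaks overlapped 0 of the 31 windows, list 1 peaks 0 and list 2 peaks 1, that of APOA5.

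Most promoters of these genes were poor in CpG dinucleotides, and USF1 peaks were rare over CpG-poor promoters in general. The median was 5 CpG per 300 bases in the 31 members and 22 in other genes. The windows under shared peaks had a median of 29. Under 10 CpG were found in 26 of the 31 (83.9%) and in 26.9% of others, a class limit chosen after the data were seen. CYP3A4, FGB and NR5A2 had 0 CpG, while ONECUT1 had 39, FOXA3 37, TF 36, FOXA1 34 and HNF4A 11. Among other genes with under 10 CpG, a shared peak overlapped the promoter in 1.06% of 4247 and a list 2 peak in 4.17%. Among those with 10 or more, the shares were 16% and 39.8% of 11533. In the CpG-poor class the members had 0 of 26 under a shared peak and 1 of 26 (3.85%) under a list 2 peak, close to the shares of other CpG-poor genes. Of the 5 CpG-rich members 0 had a shared or a list 2 peak over the promoter, below the shares of CpG-rich other genes. The windows cover a single RefSeq start site per gene, so any other start site of a gene was not read. The part of CpG content in the scarcity of peaks was not tested beyond these values.

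**Figure D1:**
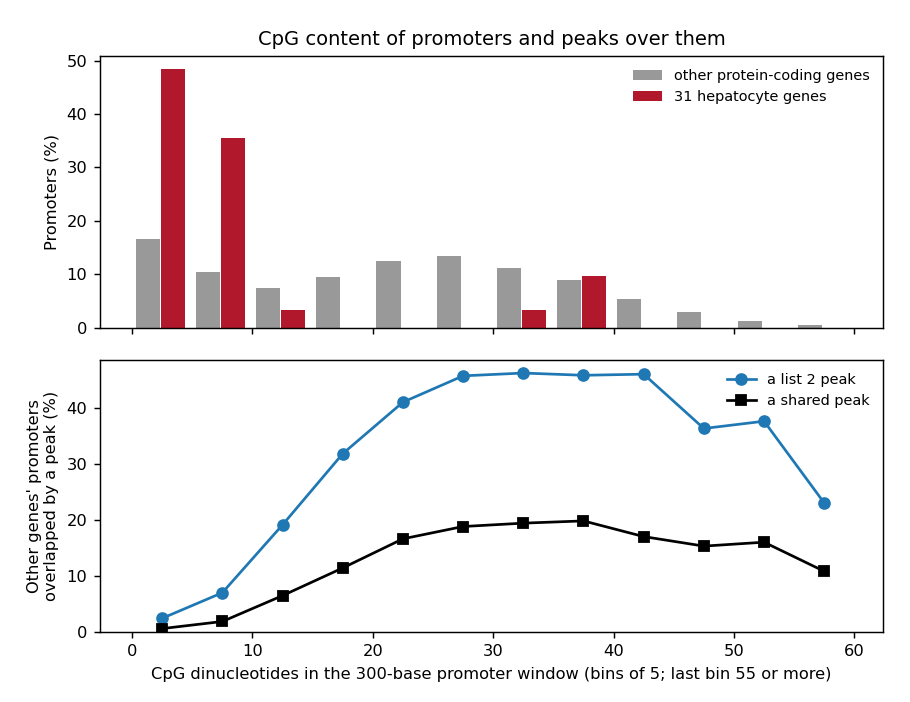
Upper panel: share of promoters (y axis, %) by the number of CpG dinucleotides in the 300-base window (x axis, bins of 5) for 31 hepatocyte genes and other protein-coding genes. Lower panel: share of other genes' promoters (y axis, %) overlapped by a list 2 or a shared peak in the same bins; in the bin of 0 to 4 CpG, which holds 48.4% of the members, 0.574% of other promoters had a shared peak over them.

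Apolipoprotein genes, which package and steer blood lipids, had list 2 peaks within 50 kb in 9 of 9 cases, against 77.9% of other genes. They had list 1 peaks in 3 (33.3%, against 53.7%) and a shared peak in 1 (11.1%, against 37.5%). List 2 peaks over 1 kb from every protein-coding gene end lay that near to 2 of the 9 (22.2%, against 60.1%). Their median number of protein-coding neighbours with an end within 50 kb was 5, against 2 in other genes. A single list 2 peak at 116792351 to 116793040 of chromosome 11 lay within 50 kb of 4 of the 9. It lies 275.5 bp upstream of APOA5, a regulator of plasma triglycerides, and 28 kb from APOA4, 37.2 kb from APOC3 and 43.1 kb from APOA1, which share that cluster. The authors gave it 34 tags, a fold over input of 5.4 and a false discovery rate (FDR) of 21.09%. FDR here is the percent that the peak caller estimated from peaks found with IP and input exchanged. In list 1 the nearest peak to APOA5 was 188 kb away, so the APOA5 promoter peak was seen in 1 of the 2 lists.

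APOE, a ligand of lipoprotein receptors, had the one shared peak of the apolipoproteins. That peak lay 15 kb away, at 44890234 to 44891329 of chromosome 19 in list 1, at the end of TOMM40, a pore protein of the mitochondrial outer membrane. It had 110 tags and a fold of 5 in list 1, and 123 tags and 4.54 in list 2, with FDRs of 100% and 0.79%. APOC2, the activator of lipoprotein lipase in the same cluster, had a list 2 peak 5.64 kb away at the end of CLPTM1 (5.36-fold), which is also the second peak near APOE. APOA2, a protein of high-density lipoprotein, had a list 2 peak 3.08 kb away at the end of TOMM40L (3.61-fold) and a list 1 peak 20.1 kb away (4.18-fold). Thus the closest peaks of APOE, APOC2 and the list 2 peak of APOA2 stood at ends of neighbouring genes. By strand, these are the ends where TOMM40, CLPTM1 and TOMM40L start.

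APOB, the structural protein of low-density lipoprotein, carried a list 2 peak inside the gene (5.38-fold, FDR 17.55%), and its nearest list 1 peak was 54.7 kb away. APOH, a phospholipid-binding plasma protein, had a list 1 peak 11.1 kb away (6.12-fold) and a different list 2 peak 13.7 kb away (6.78-fold). Neither overlapped a peak of the other list, and the nearest shared peak to APOH was 1110 kb away.

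Plasma protein genes had list 1 peaks within 50 kb in 3 of 11 cases (27.3%), list 2 peaks in 6 (54.5%) and shared peaks in 3 (27.3%). Other genes had 53.7%, 77.9% and 37.5%. VTN, which encodes the adhesion protein vitronectin, had the peak with the highest list 2 fold of all peaks near the 40 genes. In list 1 that peak spanned 28371047 to 28371824 of chromosome 17, its centre 1128.5 bp upstream of VTN and within 1 kb of the end of SARM1, a NAD-cleaving enzyme gene. It had 45 tags and a fold of 6.58 in list 1 against 72 tags and 12.03 in list 2, with FDRs of 100% and 0.17%. VTN lies among neighbours dense in peaks, and list 2 held further peaks at ends of TMEM97, POLDIP2 with VMA12, and SLC46A1, and one inside TNFAIP1.

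AHSG, the gene of the mineral-binding protein fetuin-A, had a shared peak 42.5 kb away, at 186570278 to 186570829 of chromosome 3. It lies between the ends of TBCCD1 and the chaperone gene DNAJB11, with 31 tags and a fold of 5.4 in list 1 and 38 tags and 6.38 in list 2. Its FDRs were 100% and 6.53%. For HPX, which encodes the haem carrier hemopexin, the shared peak was 40.7 kb away at 6389647 to 6391118 of chromosome 11, at the end of SMPD1, a lysosomal sphingomyelinase gene. Folds were 3.95 and 4.37, tags 126 and 144, and FDRs 92.02% and 2.38%. The nearest peak to HPX was a weaker one of list 2, 14.4 kb away (3.36-fold, FDR 16.09%). All 3 shared peaks near plasma protein genes thus lay at an end of another gene, by strand the end where that gene starts.

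The other plasma protein genes with a peak had it in list 2. TF, which encodes transferrin, had one inside the gene (6.75-fold, FDR 2.48%). HP, the gene of the haemoglobin scavenger haptoglobin, had one 45.7 kb away at the end of DHODH, an enzyme gene of pyrimidine synthesis (6.89-fold). AMBP, which encodes the alpha-1-microglobulin precursor, had one 38.4 kb away between genes (4.96-fold). No peak of either list lay within 50 kb of ALB, AFP, TTR, SERPINA1 or RBP4. The neighbours ALB and AFP, the albumin genes of adult and fetal liver, were 240 and 206 kb from the nearest list 1 peak and 953 and 919 kb from the nearest list 2 peak. For SERPINA1, the gene of alpha-1-antitrypsin, the distances were 826 and 498 kb. TTR, a carrier of thyroid hormone, was 167 and 164 kb from a peak, and RBP4, a carrier of retinol, 120 and 95.1 kb.

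Among coagulation genes, F7 (coagulation factor VII) was the one with a shared peak, and the fibrinogen genes had none near. The F7 peak lay 33.3 kb away at 113153571 to 113154328 of chromosome 13, over the F10-AS2 promoter printed above, and had 39 tags and a fold of 8.93 in list 1. In list 2 it had 50 tags and a fold of 10.29, and the FDRs were 100% and 1.98%. Its fold ranked within the top 9.41% of list 1 and the top 4.91% of list 2. F2, the prothrombin gene, had a list 2 peak centred 33 bp beyond its end, 20326 bp after the start site, at 46738667 to 46740411 of chromosome 11 (111 tags, 4.13-fold, FDR 4.35%). This is the far end of F2 and not its promoter. F9 (factor IX) held a list 2 peak inside the gene (7.08-fold, FDR 17.37%). The cluster of FGB, FGA and FGG, which encode the chains of fibrinogen, was 91.4, 94.4 and 72.5 kb from the nearest list 1 peak and 171, 191 and 212 kb from the nearest list 2 peak.

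FABP1, the liver fatty acid binding protein gene, was the only one of the 40 with shared peaks away from every protein-coding gene end. The nearer spanned 88128889 to 88129623 of chromosome 2 in list 1 and 88128713 to 88129765 in list 2, and its list 1 centre was 1194 bp upstream of the FABP1 start site. It had 78 tags and a fold of 11.77 in list 1, within the top 2.84% of that list, and 71 tags and 8.46 in list 2. The FDRs were 11.02% and 1.17%, the first being the lowest of any list 1 peak near the 40 genes. The summits of both lists lay 10 bp apart. A second shared peak stood 34 kb upstream at 88161628 to 88162419, with folds of 6.82 and 5.12 and FDRs of 100% and 11.74%. FABP1 and VTN fell just outside the gene-end limit of 1 kb, with list 2 centres at 1177 and 1070 bp. The members inside it, F2, APOA5 and TAT, were at 33, 275.5 and 536 bp.

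TAT, the gene of tyrosine aminotransferase, had its list 2 peak at 71564652 to 71565596 of chromosome 16 (56 tags, 5.49-fold, FDR 7.82%). It stands at the lower coordinate of the gene. No start site was matched for TAT, so whether this end is its promoter was not read here. The ends of the non-coding genes TAT-AS1 and LOC124903710 are also within 1 kb. CYP3A4, a drug-oxidising P450 gene, had a list 2 peak 11 kb away (5.31-fold, FDR 24.89%). CYP2E1, an ethanol-oxidising P450 gene, had its nearest 19.3 kb away inside SYCE1 (5.9-fold, FDR 19.53%). CPS1, the entry enzyme of the urea cycle, was 199 kb from a peak in each list. CYP7A1, the rate-limiting enzyme of bile acid synthesis, was 77.5 kb from list 1 peaks and 53.1 kb from list 2 peaks.

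Liver transcription factor genes had 0 shared peaks within 50 kb among 8, while 37.5% of other genes had one. A list 1 peak lay there in 4 (50%, against 53.7%) and a list 2 peak in 6 (75%, against 77.9%), near the background. Peaks over 1 kb from every protein-coding gene end lay that near to 4 of the 8 (50%) in each list. Other genes had 32.1% in list 1 and 60.1% in list 2, so these 8 were above them in list 1. The 8 were also longer than other genes (median 46.8 kb, against 24.2 kb), and the part of gene length was not tested. HNF4A, the nuclear receptor at the centre of the network, held a list 1 peak inside the gene (3.85-fold, FDR 100%), and its nearest list 2 peak was 44.9 kb away at the end of FITM2 (3.29-fold). PROX1 held a list 1 peak inside the gene (5.1-fold) and a different list 2 peak 2.08 kb away (4.29-fold). NR5A2, a nuclear receptor of bile acid synthesis, had a list 1 peak 5.28 kb away (3.75-fold) and a list 2 peak inside the gene (7.26-fold, FDR 9.04%). In these 3 genes the lists pointed to different positions.

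FOXA3 had a list 2 peak 1.41 kb upstream with 119 tags, at the end of SYMPK, an RNA processing gene (5.6-fold, FDR 0.12%). FOXA2 had one 25.8 kb away (6.73-fold, FDR 25.37%), and FOXA1 was 176 kb from list 1 peaks and 603 kb from list 2 peaks. The FOXA proteins open chromatin for other liver factors. ONECUT1 had a list 1 peak 2.27 kb from the gene (7.28-fold, FDR 100%), which lies at the far end from its start site. NR1H4, which encodes the bile acid receptor FXR, had a list 2 peak 9.13 kb away at the end of GAS2L3 (7.3-fold, FDR 0.21%).

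**Figure D2:**
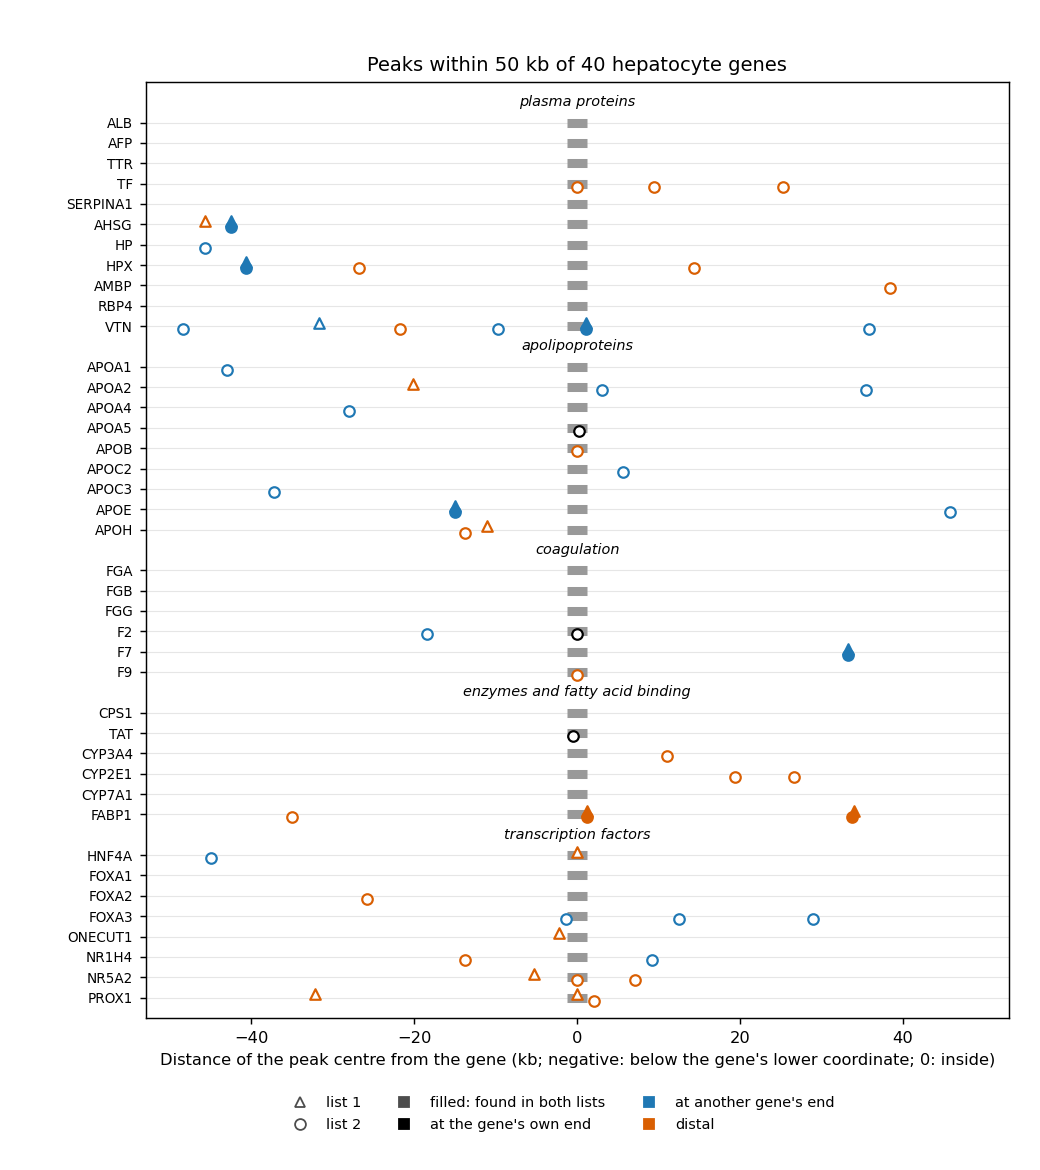
Each row is 1 of the 40 genes, grouped by role, and the x axis gives the distance (kb) of each peak centre from the gene, with peaks inside the gene at 0. Triangles are list 1 and circles list 2, filled where shared; colours give peaks at the gene's own end, at another gene's end and distal ones. Filled distal symbols stand at FABP1 alone, and 11 rows are empty.

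Distal peaks did not make up for the missing gene-end peaks in these counts. A distal peak is one whose centre lies over 1 kb from every protein-coding gene end. Of all peaks, 17.6% in list 1, 19.2% in list 2 and 35.7% of the shared ones lay at such an end. Most peaks of both lists were thus distal. At least 1 distal peak lay in or within 50 kb of 8 of the 40 genes in list 1, against 32.1% of other genes. In list 2 there were 14, against 60.1%, and for shared peaks 1 (FABP1), against 16.2%. Set beside only the other genes that lacked a gene-end peak themselves, the members were again lower. Of such other genes, 31.6% had a distal peak in list 1, 57% in list 2 and 16.1% a shared one. Members without a gene-end peak had 20%, 37.8% and 2.5%. For any peak within 50 kb, list 2 gave 67.6% of such members and 68.3% of such other genes, so in list 2 that share was near its background.

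**Figure D3:**
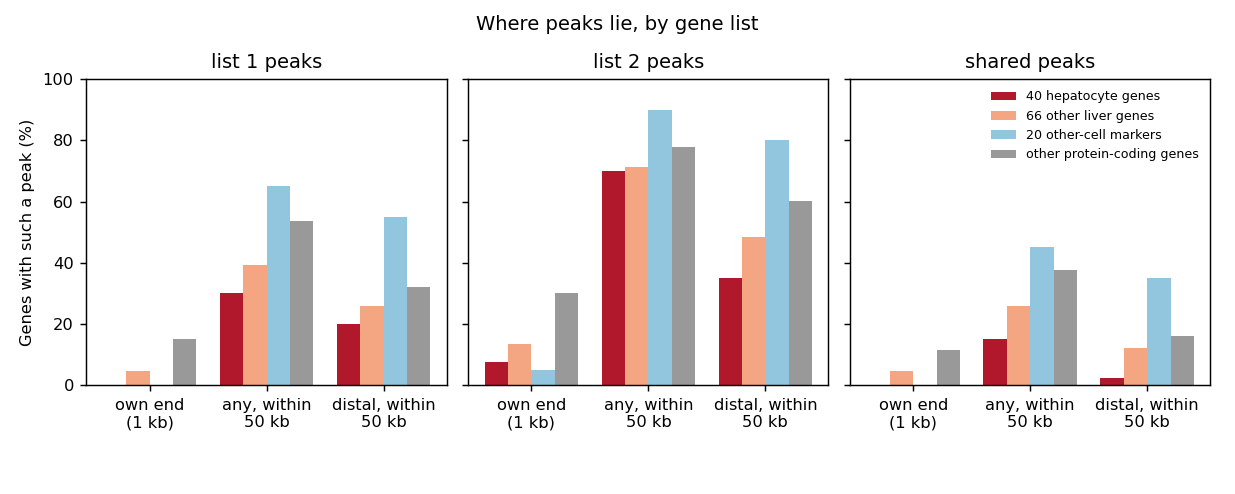
Bars give the share of genes (y axis, %) with a peak at their own end, with any peak within 50 kb and with a distal peak within 50 kb, for the 40 hepatocyte genes, 66 other liver genes, 20 markers of other cell types and all other protein-coding genes. The 40 genes have the lowest bar for any and for distal peaks in list 1, list 2 and shared peaks.

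Peak density gave the same order. The windows of the 40 genes merge into 33 stretches of 4.53 Mb in all, since 11 genes lie in 4 clusters. They held 2.21 distal peak centres per Mb in list 1 and 4.63 in list 2, against 3.68 and 7.95 in the windows of other genes. For shared distal peaks the densities were 0.441 and 1.2 per Mb. Counting all peaks, they were 3.53 against 5.03 in list 1 and 9.26 against 10.8 in list 2. The 40 genes were shorter than the others (median 10 kb, against 24.2 kb), and the part of gene length in these values was not tested.

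Of the peaks that did lie near the 40 genes, a large part stood at ends of other genes. By strand, each such neighbour end is the one where that neighbour starts. List 2 had 42 different peaks in the windows, 18 of them at the end of a neighbour, 3 at the member's own end and 21 distal. List 1 had 16, of which 6 were at a neighbour's end and 10 distal. The share at a protein-coding gene end was 50% in list 2 and 37.5% in list 1, against 26.2% and 26.9% in the windows of other genes. The 7 shared peaks split into 5 at a neighbour's end and the 2 at FABP1.

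The near peaks had folds close to those of the other peaks. Their median fold was 5.72 in list 1, where the other peaks had 5.83, and 5.39 in list 2, where the others had 5.6. For distal peaks the medians were 5.61 near members and 5.83 over all of list 1, and 5.38 and 5.67 in list 2. In list 1, 13 of the 16 had an FDR of 100% and 0 had 5% or less. In list 2, 19 of the 42 (45.2%) had 5% or less, against 30.8% of the whole list, and the median tag count was 60, against 49 in the other peaks. Of the 21 distal list 2 peaks 4 (19%, at TF, HPX and FABP1) had an FDR of 5% or less, against 24.5% of all distal list 2 peaks. Shared were 2 of the 21 (9.52%), against 15.6%.

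**Figure D4:**
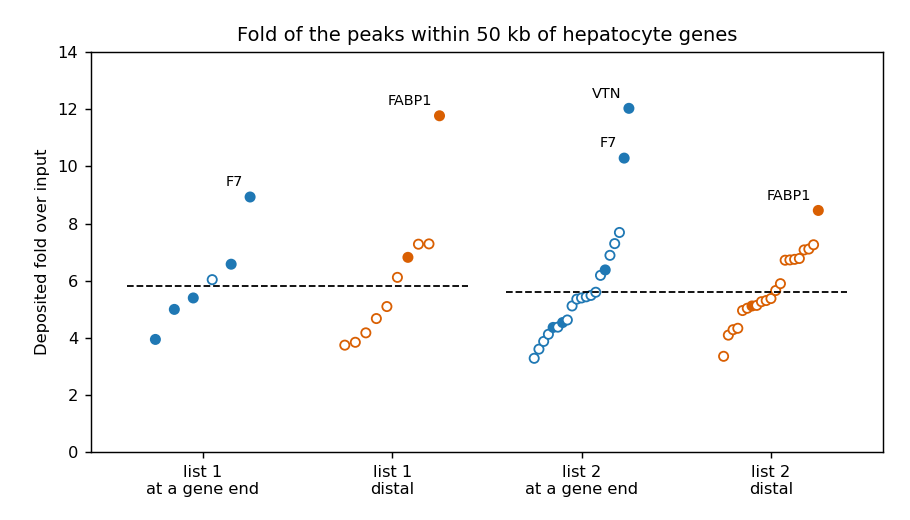
Deposited fold over input (y axis) of each peak within 50 kb of the 40 genes, by list and by position at a gene end or distal; filled symbols are shared peaks and dashed lines the median of each list (5.83 and 5.6). Peaks above 8-fold are labelled with the member they lie near: F7 (at F10-AS2), FABP1 and VTN (at SARM1).

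Distances to the nearest peak were longer for the 40 genes. Gene-end peaks count in this distance, and the set was proposed with their scarcity known, so this comparison is not independent of the choice. The distance is 0 for a peak inside the gene. Its median was 92.5 kb in list 1 (quartiles 38.8 and 210 kb) and 41.2 kb in other genes. In list 2 it was 26.9 kb (1.91 and 80.6 kb), against 3.08 kb, and for shared peaks 216 kb (88.5 and 353 kb), against 97.8 kb. Farther than the median of other genes were 29 of the 40 genes in list 1, 28 in list 2 and 28 for shared peaks. Among genes without a gene-end peak the gaps were smaller. In list 1 the medians there were 92.5 kb in members and 60.8 kb in other genes. They were 33.2 and 20.7 kb in list 2, and 216 and 130 kb for shared peaks. A list 2 peak lay inside 10% of members and 35.8% of other genes, which puts their distance at 0. Read to the nearer gene end, the list 2 medians were 26.9 kb in members and 10.2 kb in others. From the start site, with 31 members, medians were 91.4, 38.4 and 201 kb in list 1, list 2 and shared peaks. Those of other genes were 60.9, 16.5 and 123 kb, and 19, 22 and 19 of the 31 were farther. At long range the list 1 curves drew together, with a peak within 500 kb for 95% of the 40 genes and 94.3% of others. For shared peaks the shares there were 77.5% and 84.7%.

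**Figure D5:**
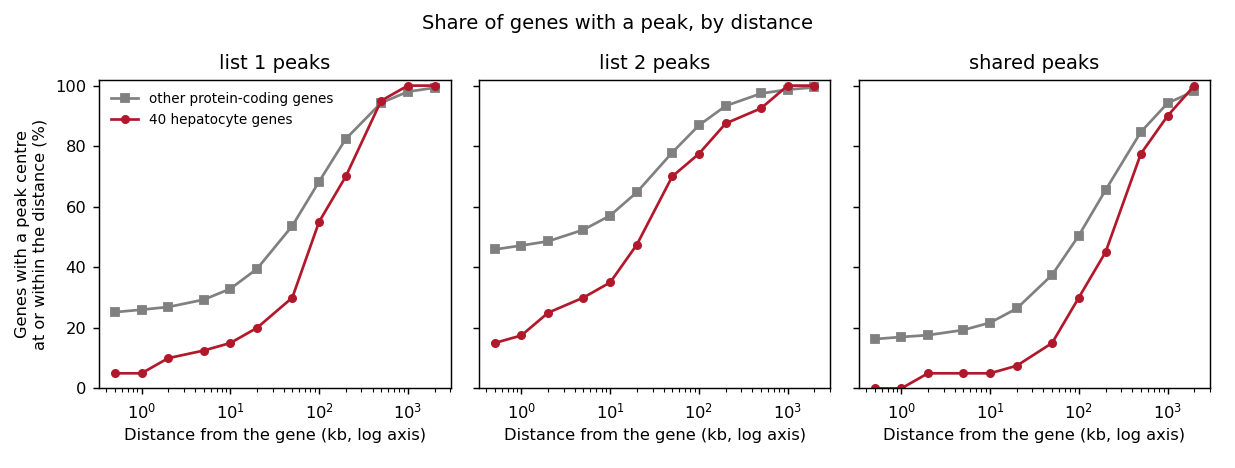
Share of genes (y axis, %) with a peak centre at or within a distance (x axis, kb, log scale; peaks inside the gene count at every distance) for the 40 hepatocyte genes and other protein-coding genes in list 1, list 2 and shared peaks. At 10 kb the 40 genes reach 15%, 35% and 5%, and the others 32.9%, 57.1% and 21.7%. Gene-end peaks, known to be scarce when the 40 genes were proposed, count here.

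These shares were also read by the number of neighbouring genes and by CpG class. The 40 genes and the other genes had the same median number of protein-coding neighbours with an end within 50 kb, 2 each. Of the 11 members with 5 or more neighbours, 4 (36.4%) had a shared peak within 50 kb and 57% of such other genes did, while list 2 gave 11 of 11 against 83.5%. A distal list 2 peak was near 18.2% of these 11, against 58%. Of the 16 with 2 to 4 neighbours, 12.5% had a shared peak, against 35.8%. In list 2, 56.2% of the 16 had any peak, against 79.2%, and 25% a distal one, against 59%. Of the 13 with 0 or 1 neighbour, 0 had a shared peak, against 28.1%. In list 2, 61.5% of the 13 had any peak, against 72.4%, and 61.5% a distal one, against 63%. The size of the gap thus differed by list and class. Among these neighbour classes, only list 2 peaks of any kind with 5 or more neighbours were more frequent in members. In the CpG-poor class, any peak lay within 50 kb of 34.6% of members and 44.5% of other genes in list 1, of 69.2% and 66.6% in list 2, and of 23.1% and 26.7% for shared peaks. The distal shares in that class were 19.2% against 32.4%, 38.5% against 56%, and 3.85% against 15.5%. Of the 5 CpG-rich members, which are TF, FOXA1, ONECUT1, FOXA3 and HNF4A, 2 had a list 1 peak within 50 kb (40%, against 59% of CpG-rich others). List 2 gave 3 of them one (60%, against 83.4%), and shared peaks 0 (against 42.8%). The distal shares of these 5 were 40% against 33.1% in list 1, 20% against 62.6% in list 2 and 0% against 16.8% for shared peaks. In the CpG-poor class the distal shares were lower in members throughout, and the shares for any peak were lower in list 1 and closer in list 2 and shared peaks.

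Other genes of the same program showed intermediate values. Of 66 further liver genes, chosen by function, 17 had a shared peak within 50 kb (25.8%), 8 a shared distal one (12.1%) and 3 a shared gene-end peak (4.55%). By the lower of both folds, the strongest of these was F10 (coagulation factor X), 4420.5 bp from the F10-AS2 peak described with F7. Next were PROC (protein C), with a peak 6628.5 bp from the gene (7.55-fold and 8.64-fold), and HPD, an enzyme of tyrosine breakdown, with one at the ends of HPD and PSMD9 (6.51-fold and 9.29-fold). For the nuclear receptor gene NR0B2 (SHP), the peak was 10911.5 bp away at the ends of GPATCH3 and NUDC (6.25-fold and 8.73-fold).

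Genes of other cell types were not short of distal peaks. Of 20 markers of blood, nerve, muscle, endocrine, stromal and epithelial cells, 9 had a shared peak within 50 kb (45%, against 37.5% of all other genes). A shared distal one was near 7 (35%, against 16.2%). Gene-end peaks were scarce in these markers too. Shared ones stood at 0 (against 11.6%), list 1 ones at 0 (against 15%) and list 2 ones at 1 (5%, against 30.2%). In list 2 the distal count was 16 of 20 (80%), with 60.1% in all other genes.

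Genes long known as USF targets in liver were mixed. FASN, the fatty acid synthase gene, had a shared gene-end peak, with a fold of 5.9 in list 1 (FDR 7.34%) and 6.24 in list 2 (FDR 0.16%). In list 2 alone, gene-end peaks stood at APOA5, at PKLR (liver pyruvate kinase, 22 bp from the gene, 3.94-fold) and at SREBF1, a regulator of lipid synthesis (522 bp from an end, 5.71-fold). PKLR also had a shared peak 15.4 kb away inside RUSC1 (8.52-fold and 13.35-fold), and HAMP, the hepcidin gene, one 34 kb away (8.01-fold and 4.43-fold). LIPC, the hepatic lipase gene, held separate peaks of list 1 (8.14-fold) and list 2 (3.48-fold). ABCA1, a cholesterol exporter, held one of list 2 (4.44-fold). APOA2 and APOC3 are described above.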

How the data were processed

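The 2 peak lists are the authors' files, made per the file headers with MACS 1.4.2 from uniquely mapped reads, IP against the input of the same number, with a p cutoff of 1e-05 and 1 tag kept per position. Bowtie2, deepTools, HOMER and GRCh38 are named in the submitters' processing notes, without roles. Per peak the authors deposited a tag count (not scaled to depth), a fold (the ratio of IP tags to tags expected from input and local background), a score (minus 10 times log10 of the p-value) and an FDR in percent, with a ceiling of 100%. They served only to describe, rank and filter peaks within a list.

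Gene positions came from RefSeq (GRCh38.p14), without 63 genes of chromosome Y, where neither list had a peak. A peak's centre is the mean of its start and end. Of the start sites in the RefSeq promoter table, 83.8% equal a gene end. No test was made: in place of random protein-coding genes, all others gave the background. Distances were tested on simulated data (Python 3.11.15, numpy 2.4.6, pandas 2.3.3, matplotlib 3.10.9). The 40 genes and the lists were chosen with earlier results of these data known. Each member is named with its nearest peak or its distance, shared and gene-end peaks with full values, and likewise the 5 strongest of the further liver genes and the 10 USF targets, except items not reported here. Alternatives were stricter thresholds, other windows, summits, start sites, overlap rules, single lists and 1 gene per locus. Genome sequence beyond promoters was not used here.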

Additional observations from a re-analysis of the deposited data

How the results depend on the processing

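The 86 alternatives turned no direction, but many cannot: gene-end counts, known when the set was chosen, start at 0 in list 1 and shared peaks, and single lists repeat values of the report. Sizes changed in 44. In the order list 1, list 2 and shared peaks, genes with a peak within 50 kb numbered 1, 11 and 1 at a p of at most 1e-10, 2, 3 and 2 at a fold of at least 8 and 0, 12 and 0 at an FDR of at most 5%. They numbered 6, 14 and 2 within 10 kb, 9, 19 and 3 within 25 kb and 22, 31 and 12 within 100 kb. Gene-end peaks were found at 0, 0 and 0 genes at a p of at most 1e-10, 0, 0 and 0 at a fold of at least 8 and 0, 1 and 0 at an FDR of at most 5%. The counts were 4, 8 and 2 within 5 kb of an end and 0, 1 and 0 at start sites of 31 genes. Median distances were 358, 203 and 547 kb at a p of at most 1e-10, 507, 300 and 1140 kb at a fold of at least 8 and 5620, 146 and 5620 kb at an FDR of at most 5%. At a fold of at least 8 the medians of other genes were 441, 198 and 820 kb, and 21, 29 and 21 of the 40 were farther, so list 1 and shared peaks were near their background there. Distal peaks were near 0, 3 and 0 genes at that FDR and 17, 22 and 5 within 100 kb. Within 100 kb the distal shares were 42.5%, 55% and 12.5%, against 46.4%, 75.2% and 25.6% of other genes, so the list 1 gap was small there, and at that FDR 0%, 7.5% and 0% stood against 0.733%, 26.6% and 0.707%. These were alternatives chosen after seeing the data, as were 1 gene per locus for counts and the use of non-coding ends. Fewer peaks pass the stricter thresholds, so these counts fall by construction. With list 2 alone (without replicate 1) or list 1 alone (without replicate 2) in place of shared peaks, the ranges were 12 to 28 genes within 50 kb, 0 to 3 with a gene-end peak, 8 to 14 with a distal peak, and medians of 26.9 to 92.5 kb. At an FDR of at most 5% list 1 keeps 274 peaks, which limits what it can show near 40 genes. A CpG limit of 15 gave a shared distal share of 3.7% in members and 15.3% in others. No paired analysis was possible because the pairing of IP and input is built into both lists, which give no input tags per peak.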

Other observations

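Some liver genes outside the 40 did carry shared gene-end peaks, and they are named here after their values were seen. Of the 66 further liver genes these include HPD and CEBPB. CEBPB, a factor of the acute phase response, had one 349.5 bp from the gene, with a fold of 4.59 in list 1 and 7.63 in list 2 and FDRs of 100% and 0.22%.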
